A study of Drosophila melanogaster with 72 samples.

Results

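Of 15682 counted genes, 60 made up a set of transcripts that were at most 0.5 times as abundant at 6 weeks as at 1 week in the skeletal muscle of each of 3 strains of Drosophila melanogaster. Levels are given as CPM, the counts of a gene scaled to a library of 1 M (mega) gene counts. The rule added 0.5 CPM to the mean of each strain and age and kept genes with a 6 week to 1 week ratio of at most 0.5, and at least 5 CPM at 1 week, in B3, in O1 and in O3. Of 8026 genes at that level, 430 (5.36%) had such a ratio in B3, 105 (1.31%) in O1 and 202 (2.52%) in O3, and 69 (0.86%) had it in all 3. The rule left out 9 of them for symbols starting with Cyp, Gst, Jon, Cpr, Act or Tpn, namely Act79B, Cpr49Ae, Jon25Bi, Jon25Bii, Jon65Aii, Jon99Fi, Jon99Fii, TpnC4 and TpnC41C. The age libraries chose the members, so all values of the age experiment are a description and were not tested.

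The study asked how variants of circadian genes and the muscle clock relate to differences in lifespan between fly populations. Messenger RNA of skeletal muscle was sequenced in 72 libraries of 3 experiments. In the age experiment, the parental strain B3 and the delayed-aging strains O1 and O3 were compared at 1 and 6 weeks of age, with 3 libraries in each of the 6 groups. In the day course the same strains were harvested at ZT0, ZT6, ZT12 or ZT18 (zeitgeber time in hours, with ZT0 by convention the start of the light phase). Groups held 3 libraries, except for 2 in B3 at ZT6, B3 at ZT18 and O3 at ZT6 and 1 in O1 at ZT18. In the transgenic experiment, flies labelled mhc carried the driver Mhc-Gal4, and flies labelled mhc>timeless expressed the clock gene timeless from that driver in muscle; hours were the same, with 3 libraries a group except for 2 in mhc>timeless at ZT0. The labels give neither the sex of the flies, nor their age in the day courses, nor the hour of harvest in the age experiment. Whether replicates were separate flies is not stated, so the p-values describe the spread among these libraries, which may be technical.

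Insect muscle makes its ATP mainly in mitochondria that lie between the myofibrils. Glycolysis and the glycerol phosphate shuttle feed the citrate cycle and the respiratory chain, whose proton gradient drives the ATP synthase, and arginine kinase buffers the ATP that myosin and the calcium pump consume. Contraction starts when calcium leaves the sarcoplasmic reticulum and ends when the pump returns it.

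The age libraries gave 15.5 to 35.7 M gene counts each, those of the day course 39.5 to 90 M and those of the transgenic flies 53.1 to 170 M. Muscle markers were present in every age library, with Mhc (muscle myosin heavy chain) at 3057 CPM or more. A list of 36 testis genes summed to between 1000 and 3137 CPM in 4 libraries of 1 week (O1 replicates 2 and 3, O3 replicates 1 and 2) and to at most 653 CPM in the others of that age. At 6 weeks it summed to 959, 729 and 502 CPM in O1 replicates 1, 2 and 3 and to at most 479 CPM in B3 and O3. Without the 4 libraries of 1 week the rule found 41 genes, of which 38 were members. All libraries of 6 weeks were kept there, those of O1 included. At 1 week this left only replicate 1 of O1, the lowest of its group for 48 members, and replicate 3 of O3. Of the 22 members then lost, 21 still had ratios of at most 0.5 in O3. The B3 ratios could not change, because no B3 library was left out. A list of 20 photoreceptor genes summed to 5313 CPM in mhc at ZT12 replicate 3 and to 7091 CPM in mhc>timeless at ZT18 replicate 3, against 427 to 536 CPM in the other transgenic libraries. Counts for the transgenic lines are therefore also given with each of these 2 libraries left out in turn. The 2 were not left out together.

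A role could be given to 46 of the 60 members. The respiratory chain held 9, ATP synthase 6, the citrate cycle with the entry of pyruvate 5, and glycolysis with sugar stores 5. Mitochondrial carriers, the phosphagen and glycerol phosphate systems, and the sarcomere held 3 each, calcium handling 2, and 1 was a small heat shock protein. The remaining 9 of the 46 were named genes of other kinds. Together the 60 members took 7.40% to 7.83% of all gene counts in B3 at 1 week and 1.87% to 1.90% at 6 weeks. In O1 the share was 7.24% to 9.26% at 1 week and 2.66% to 2.92% at 6 weeks, and in O3 9.42% to 10.03% and 2.696% to 2.887%. In bulk muscle, fewer cells of a type and less RNA per cell cannot be told apart.

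The median 6 week to 1 week ratio of the members was 0.313 in B3, 0.417 in O1 and 0.357 in O3, beside 1.086, 1.157 and 1.178 over all 8026 genes at the level minimum. On the log2 scale those all-gene medians lay 0.12, 0.21 and 0.24 above 0. With effective library sizes by TMM (trimmed mean of M-values) the members' medians were 0.287, 0.362 and 0.320. The 3 libraries at 6 weeks lay below the 3 at 1 week for 60 members in B3, 58 in O1 and 60 in O3. The same held for 26.1% of genes at this level in B3, 10.2% in O1 and 14.5% in O3; the rule used these libraries, and nothing is read from the counts. The ratio was lowest in B3 for 38 members, in O3 for 18 and in O1 for 4, and it was highest in O1 for 42. Compared with B3, 38 members had a higher mean in both O1 and O3 at 1 week, and 48 at 6 weeks. These strain counts also come from libraries that the rule used, and no share over all genes stands beside them. Nothing is read from them. When each age library was left out in turn, 46 of the 60 genes met the rule every time. The 14 that did not were ATPsyn-beta, CG10307, CG12057, CG13024, CG13458, CG2022, CG3683, CG42337, CG5177, CG5261, CG5724, Gpdh, Pgk and Ucrh. Just inside the threshold stood Ucrh, CG10307 and Pgk, with highest ratios of 0.4996, 0.4995 and 0.4933. Just outside it were CG10947, CG4000 and CG17323, at 0.5001, 0.5012 and 0.5016.

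**Figure D1:**
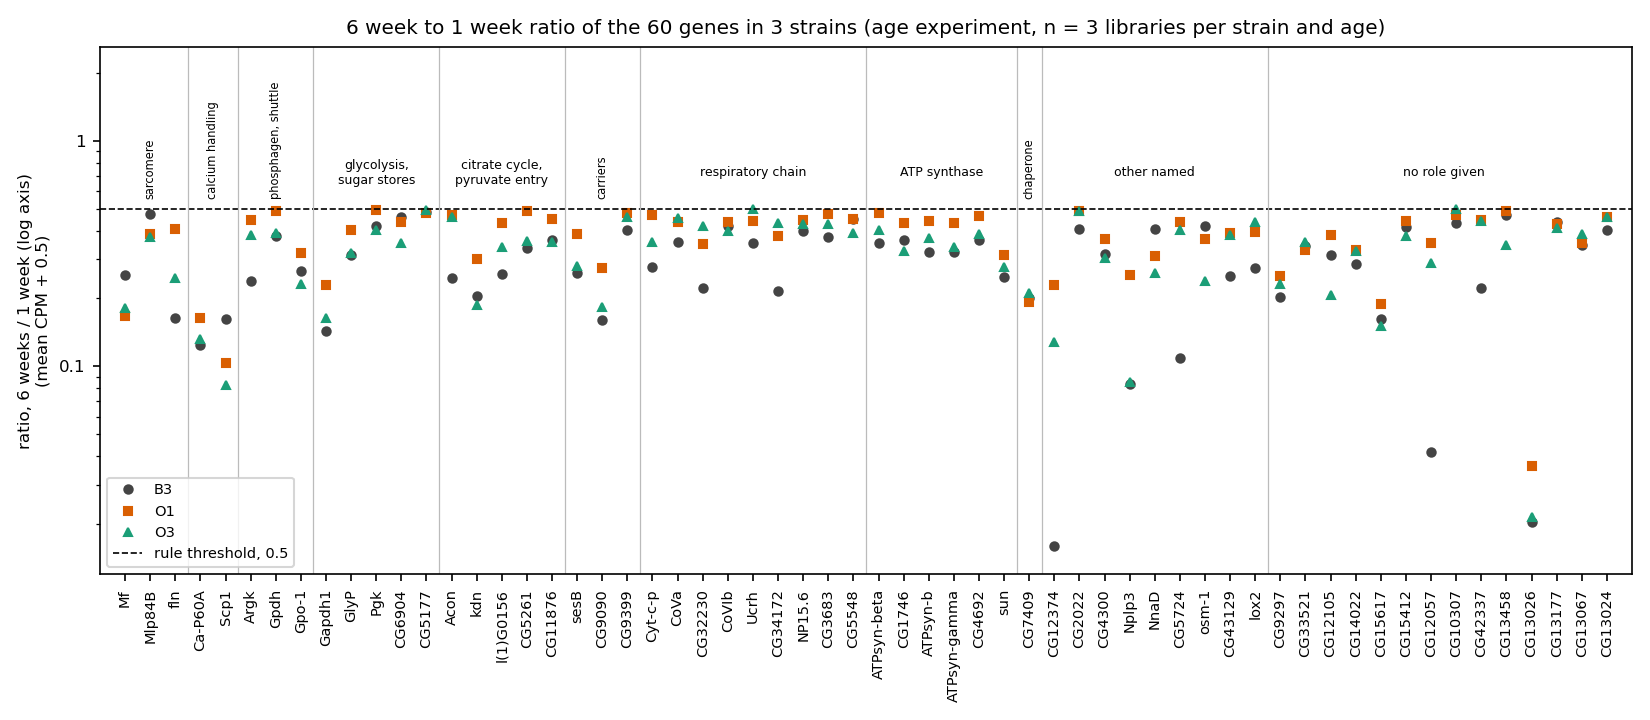
Ratio of the 6 week to the 1 week mean (each plus 0.5 CPM, log axis) for the 60 members in B3 (circles), O1 (squares) and O3 (triangles), each from 3 libraries per age, ordered by role. All points lie under the rule's threshold of 0.5 (dashed line), and CG13026 in each strain, CG12374 in B3 and CG12057 in B3 lie lowest, under 0.05.

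Both calcium handling members were among the members with the lowest ratios. Ca-P60A, the SERCA pump that returns calcium to the sarcoplasmic reticulum, was the most abundant member. Its B3 libraries held 10780, 10720 and 10410 CPM at 1 week, but 1374, 1270 and 1311 CPM at 6 weeks. Its O1 libraries held 8988, 10720 and 10940 CPM, then 1785, 1646 and 1577 CPM. Its O3 libraries held 11790, 11700 and 12720 CPM, then 1704, 1563 and 1528 CPM. The ages stood apart in each strain, and the ratios were 0.124, 0.163 and 0.132. For Scp1, a sarcoplasmic calcium-binding protein, the B3 libraries held 3205, 3027 and 2990 CPM and later 546, 470 and 475 CPM. Those of O1 held 2685, 4311 and 3476 CPM and later 339, 364 and 380 CPM, and those of O3 3662, 3648 and 3781 CPM and later 315, 302 and 304 CPM. Here O3 had the lowest ratio, 0.0832, and B3 the highest, 0.162. Of 22 genes on a list of calcium handling, 14 had a ratio below 1 in all 3 strains and 6 above 1, with list medians of 0.857, 0.837 and 0.783 in B3, O1 and O3.

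The 3 sarcomere members were Mf (myofilin, a thick filament protein), fln (flightin, a myosin rod-binding protein of flight muscle) and Mlp84B, a LIM protein of the Z disc. Mf stood at 7264, 6656 and 6443 CPM in the B3 libraries of 1 week and at 1689, 1719 and 1745 CPM in those of 6 weeks. Its O1 mean was 9506 ± 2173 CPM in the younger and 1596 ± 78.8 CPM in the older flies, and its O3 mean 9096 ± 380 and 1646 ± 58.1 CPM (mean ± SD, n = 3). The 3 strains thus lay close together at 6 weeks. For fln they stayed apart: B3 libraries of 6 weeks held 51.9, 55.7 and 43.2 CPM, O1 libraries 221, 203 and 185 CPM, and O3 libraries 208, 180 and 180 CPM. Its ratios were 0.165, 0.406 and 0.247. Mlp84B had ratios of 0.473, 0.385 and 0.375, highest in B3.

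Act79B, TpnC4 and TpnC41C met the ratio and level of the rule and were left out only by symbol. Their highest ratios in any strain were 0.493, 0.286 and 0.345. Other filament genes outside the set did not all fall. Of 12 listed thick filament genes, Mf and fln included, 8 had a ratio below 1 in all 3 strains and 1 above. Of 21 genes of the thin filament and Z disc, Mlp84B included, 11 were below 1 in all 3 strains and 5 above. Mhc had ratios of 0.721, 0.703 and 0.481 in B3, O1 and O3. Act57B, a muscle actin, had a higher mean at 6 weeks in each strain, with ratios of 3.25, 1.51 and 1.26. sls, the titin-like protein of the Z disc, had ratios of 1.14, 0.824 and 0.618.

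Among the shuttle and sugar genes, Argk is the arginine kinase that buffers ATP. Its B3 libraries held 5072, 5077 and 4863 CPM at 1 week, but 1166, 1196 and 1210 CPM at 6 weeks. Its ratio was 0.238 in B3, 0.448 in O1 and 0.381 in O3, and its 1 week level was highest in B3. Gpdh and Gpo-1, the cytosolic and mitochondrial glycerol 3-phosphate dehydrogenases, had ratios of 0.378, 0.487 and 0.388 and of 0.264, 0.319 and 0.233. For Gapdh1, a glycolytic dehydrogenase, B3 libraries held 3632, 3187 and 3238 CPM and later 500, 473 and 474 CPM. O1 libraries held 2006, 3125 and 3201 CPM and later 699, 588 and 633 CPM, and O3 libraries 4026, 3654 and 3826 CPM and later 656, 590 and 642 CPM. Its ratios of 0.144, 0.231 and 0.164 were the lowest of the 5 glycolysis and sugar store genes in each strain. GlyP, glycogen phosphorylase, had ratios of 0.310, 0.403 and 0.319, and CG6904, glycogen synthase, 0.461, 0.437 and 0.353. Pgk, phosphoglycerate kinase, and CG5177, a trehalose phosphatase by homology, lay between 0.401 and 0.493. On the wider list of 13 glycolysis genes, 2 of them members, 11 had a ratio below 1 in all 3 strains.

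Acon, the mitochondrial aconitase, was the most abundant of the 5 citrate cycle and pyruvate entry members. Its B3 libraries held 4315, 4375 and 4307 CPM at 1 week, but 1094, 1050 and 1055 CPM at 6 weeks. O1 libraries held 6471, 7152 and 6205 CPM and later 3390, 3127 and 2754 CPM, and O3 libraries 7485, 7086 and 7378 CPM and later 3387, 3345 and 3308 CPM. The B3 libraries were the lowest at both ages. kdn, citrate synthase, had 6 week means of 351 ± 20.9, 488 ± 32.1 and 430 ± 27.6 CPM in the 3 strains in that order, with ratios of 0.206, 0.298 and 0.188. l(1)G0156, a subunit of isocitrate dehydrogenase, had ratios of 0.256, 0.432 and 0.338. CG5261 and CG11876, which encode parts of the pyruvate dehydrogenase complex, had ratios between 0.335 and 0.490. Of 25 listed genes of this pathway, 5 of them members, 21 had a ratio below 1 in all 3 strains, with medians of 0.479, 0.709 and 0.680.

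**Figure D2:**
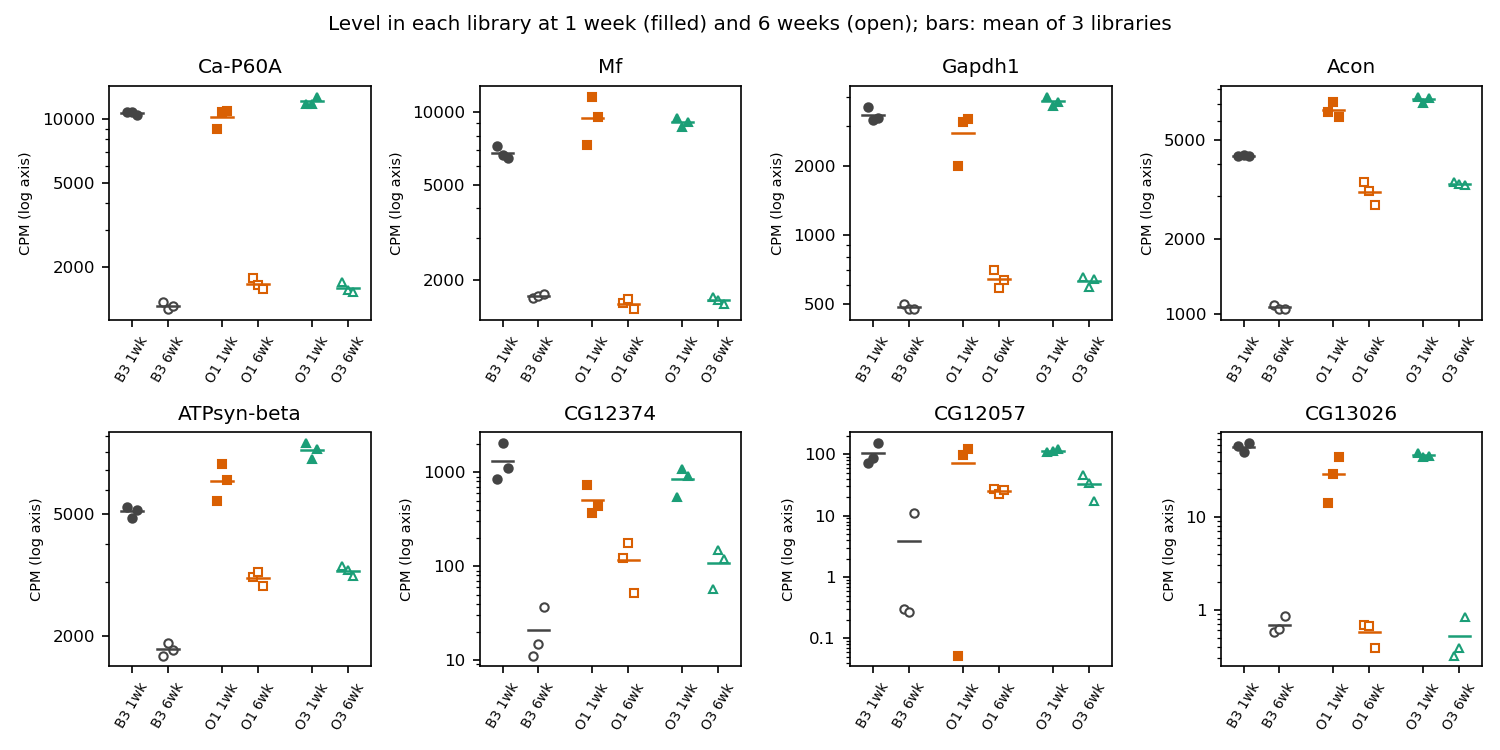
CPM (log axis) in each library of 8 members at 1 week (filled) and 6 weeks (open) in B3 (circles), O1 (squares) and O3 (triangles), with a bar at the mean of 3 libraries. The ages do not overlap except for CG12057 in O1, where 1 library at 1 week stands at 0.0526 CPM.

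The 9 respiratory chain members spanned complexes I, III and IV and cytochrome c, which carries electrons to complex IV. Their median ratio was 0.356 in B3, 0.440 in O1 and 0.426 in O3. For Cyt-c-p, a cytochrome c, B3 libraries held 1102, 939 and 921 CPM and later 273, 281 and 260 CPM. O1 libraries held 1331, 1681 and 1743 CPM and later 756, 761 and 715 CPM, and O3 libraries 1919, 1777 and 1892 CPM and later 699, 650 and 646 CPM. B3 was lowest at 6 weeks without overlap. CoVa and CoVIb encode subunits of cytochrome c oxidase, with ratios of 0.356, 0.437 and 0.455 and of 0.417, 0.434 and 0.399. CG34172, a cytochrome c oxidase 7A-like gene, had the lowest ratio of the 9 in B3, 0.216, against 0.377 in O1 and 0.433 in O3. Ucrh, a subunit of complex III, and the complex I genes CG32230, CG3683, CG5548 and NP15.6 had ratios of 0.222 to 0.448 in B3. Of 29 complex I genes on the wider list, of which only CG5548 is a member, 24 had a ratio below 1 in all 3 strains. Of 23 genes of complexes II to IV and cytochrome c, 4 of them members, 21 did.

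The ATP synthase members were ATPsyn-beta (the catalytic subunit), ATPsyn-gamma, ATPsyn-b, CG1746 (subunit c), CG4692 (subunit f) and sun (the epsilon subunit). ATPsyn-beta stood at 5295, 4855 and 5184 CPM in the B3 libraries of 1 week and at 1723, 1894 and 1803 CPM in those of 6 weeks. Its 6 week mean was 3085 ± 158 CPM for O1 and 3270 ± 131 CPM for O3. The ratios of the 6 genes lay within 0.249 to 0.365 in B3, 0.310 to 0.480 in O1 and 0.276 to 0.403 in O3, lowest for sun in each strain. Of 14 listed subunits, 6 of them members, 13 had a ratio below 1 in all 3 strains, with medians of 0.375, 0.499 and 0.457. The 3 carriers were sesB (the ADP/ATP translocase), CG9090 (a phosphate carrier) and CG9399 (a mitochondrial pyruvate carrier). sesB had a B3 mean of 6230 ± 235 CPM in the younger and 1621 ± 63.0 CPM in the older flies, and its ratios were 0.260, 0.385 and 0.280. CG9090 had ratios of 0.161, 0.273 and 0.183.

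Outside energy metabolism, CG7409, a small heat shock protein, had ratios of 0.2003, 0.193 and 0.212. Of 21 listed chaperones, CG7409 included, 11 had a ratio above 1 in all 3 strains and 5 below. Of all 8026 genes at the level minimum, 4241 were above 1 in all 3 strains and 1252 below. By the mean log2 ratio over strains, CG13026 and CG12374 were the lowest of the set. CG13026, a gene with no role given, stood at 58.6, 50.8 and 62.6 CPM in the B3 libraries of 1 week and at 0.574, 0.623 and 0.856 CPM in those of 6 weeks, with ratios of 0.0205, 0.0363 and 0.0216. CG12374 encodes a carboxypeptidase of the gut. Its B3 libraries held 858, 2046 and 1099 CPM and later 11.2, 14.99 and 36.5 CPM. O1 libraries held 725, 365 and 434 CPM and later 122, 175 and 51.9 CPM, and O3 libraries 550, 1089 and 925 CPM and later 57.9, 150 and 121 CPM. The 64 gut genes at the level minimum had a median ratio of 0.361 in B3, 1.11 in O1 and 1.01 in O3. All 79 gut genes of the list summed to 14930 to 18780 CPM at 1 week and 7910 to 10850 CPM at 6 weeks in B3, to 23410 to 24200 and 22940 to 30350 in O1, and to 14450 to 20800 and 15010 to 28190 in O3. No gene of the list was at 0 in every age library, and the part of gut RNA in the values of CG12374 was not tested.

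Nplp3, a neuropeptide-like precursor, had ratios of 0.0833, 0.253 and 0.0849, and CG15617, with no role given, 0.163, 0.189 and 0.151. osm-1, an intraflagellar transport gene of ciliated neurons, and lox2, a lysyl oxidase, were low, with 1 week means of 10.72 and 10.99 CPM in B3. CG9297 was the most abundant member with no role given, with a B3 mean of 3624 ± 201 CPM in the younger and 739 ± 8.63 CPM in the older flies. CG12057 and CG5724 rested on scattered libraries in O1. CG12057 held 0.0526, 95.9 and 122 CPM at 1 week there and 27.0, 22.6 and 26.1 CPM at 6 weeks. CG5724, a UDP-glycosyltransferase, held 12.2, 119 and 53.4 CPM and later 28.1, 19.1 and 32.5 CPM. For both, 1 library of 1 week lay below the libraries of 6 weeks, and without the testis-rich libraries of 1 week their ratio in O1 was not below 1.

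The day course, whose libraries the rule did not use, showed most members at a higher level in O1 and O3 than in B3. The strains were compared by edgeR's quasi-likelihood test on the mean over the 4 hours, with Benjamini-Hochberg adjustment over 12295 genes and a threshold of 0.05. All 60 members were tested. Between O1 and B3, 54 members passed, 48 higher in O1 and 6 lower. Of all genes tested 56.1% passed, 28.6% higher and 27.6% lower, and of the 7995 tested genes that met the rule's level minimum 65.6% did, 31.6% higher and 34% lower. The members' median log2 difference was 0.45, against 0.02 over all genes tested. Between O3 and B3, 48 members passed, 42 higher and 6 lower. Of all genes 60.7% passed, 31.3% higher and 29.4% lower, and of those at the level minimum 68.3% did, 31.3% higher and 37% lower. The members' median was 0.36 against 0.03. In these tests 41 members were higher in both O1 and O3, and CG10307 and CG2022 were lower in both. Both comparisons share the B3 libraries, and this overlap was not tallied over all genes, so nothing is read from its size.

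**Figure D3:**
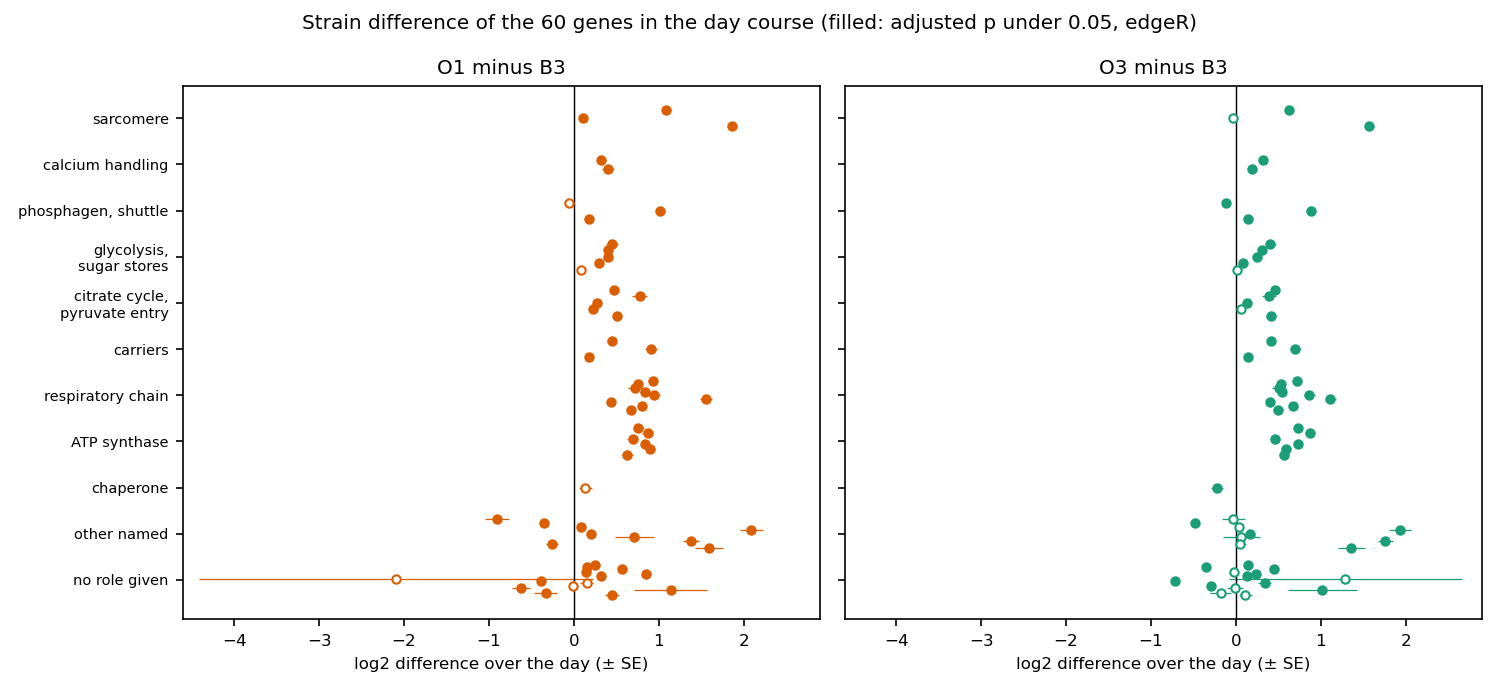
Log2 difference (± SE, edgeR) of each member between O1 and B3 and between O3 and B3 over the day course, by role, from 10, 10 and 11 libraries of B3, O1 and O3. Filled points have an adjusted p under 0.05, and the 9 respiratory chain and 6 ATP synthase members all lie above 0 in both comparisons.

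The sarcomere gene fln showed the difference with the smallest p in both comparisons. Its B3 libraries ranged from 108 to 183 CPM (median 160), O1 libraries from 422 to 608 CPM (median 509) and O3 libraries from 329 to 549 CPM (median 420). Every O1 and O3 library stood above every B3 library. The log2 difference was 1.86 ± 0.06 for O1 (± SE, edgeR adjusted p = 1.97e-17) and 1.57 ± 0.05 for O3 (adjusted p = 9.72e-17). For Mf, B3 libraries ranged from 3034 to 4376 CPM (median 3559), O1 libraries from 5984 to 8626 CPM (median 7395) and O3 libraries from 4413 to 6368 CPM (median 5884). Again B3 lay below both strains without overlap, and Mf was higher by 1.09 ± 0.05 in O1 and 0.63 ± 0.05 in O3. Mlp84B differed by 0.11 ± 0.04 for O1 (adjusted p = 0.023) and by -0.03 ± 0.04 for O3 (adjusted p = 0.454). The 10 other tested thick filament genes gave no single direction, with 4 higher and 4 lower in O1 and 1 higher and 6 lower in O3.

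The 23 mitochondrial members, counting the respiratory chain, ATP synthase, the citrate cycle and the carriers, were all higher in O1 than in B3, by 0.18 to 1.56 on the log2 scale. In O3, 22 of them were higher, and CG5261 did not pass (0.06 ± 0.05, adjusted p = 0.331). CG34172 differed most among them. Its B3 libraries ranged from 107 to 166 CPM (median 130), O1 libraries from 331 to 419 CPM (median 368) and O3 libraries from 242 to 361 CPM (median 267), without overlap with B3. Its log2 difference was 1.56 ± 0.07 for O1 (adjusted p = 9.73e-15) and 1.11 ± 0.06 for O3 (adjusted p = 8.74e-13). Cyt-c-p was higher by 0.93 ± 0.06 and 0.72 ± 0.05, CG4692 by 0.90 ± 0.05 and 0.59 ± 0.05, and Acon by 0.48 ± 0.04 and 0.47 ± 0.04. Genes of these pathways outside the set differed by pathway. Of 30 tested complex I genes 28 passed as higher in O1 and 28 in O3, and of 24 genes of complexes II to IV 22 did in each. Of 10 other ATP synthase genes, 8 were higher and 1 lower in O1, and 9 higher and 1 lower in O3. Of 22 citrate cycle genes, 15 were higher and 4 lower in O1, and 13 higher and 3 lower in O3. The 18 other mitochondrial carriers were mixed, with 10 higher and 4 lower in O1 and 8 higher and 4 lower in O3.

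For Gpdh, of the glycerol phosphate shuttle, B3 libraries ranged from 557 to 817 CPM (median 625), O1 libraries from 1133 to 1656 CPM (median 1293) and O3 libraries from 919 to 1546 CPM (median 1169). It was higher by 1.02 ± 0.05 in O1 and by 0.88 ± 0.05 in O3, without overlap with B3. Argk, the arginine kinase, differed by -0.06 ± 0.04 in O1 (adjusted p = 0.193) and was lower in O3, by -0.11 ± 0.03 (adjusted p = 0.00758). Its libraries overlapped among the strains. The calcium pump Ca-P60A ranged from 6157 to 8355 CPM in B3 libraries, 7936 to 10950 CPM in O1 libraries and 8091 to 9673 CPM in O3 libraries. The strains overlapped, and it was higher by 0.33 ± 0.05 in O1 and 0.32 ± 0.05 in O3. Scp1 was higher by 0.40 ± 0.07 and 0.19 ± 0.06. Gapdh1 was higher by 0.45 ± 0.07 and 0.41 ± 0.07, GlyP by 0.40 ± 0.04 and 0.30 ± 0.04, and CG5177 passed in neither (0.08 ± 0.05 and 0.01 ± 0.04, adjusted p = 0.136 and 0.878).

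Among the other members, Nplp3 was higher by 2.09 ± 0.14 in O1 and 1.93 ± 0.13 in O3, osm-1 by 1.38 ± 0.09 and 1.76 ± 0.09, and lox2 by 1.59 ± 0.17 and 1.36 ± 0.16. CG12374, the gut carboxypeptidase, was lower in O1 (-0.90 ± 0.15, adjusted p = 1.14e-05) and did not pass in O3 (-0.03 ± 0.13, adjusted p = 0.887). CG10307, with no role given, was lower in both (-0.38 ± 0.04 and -0.72 ± 0.04), as was CG2022 (-0.35 ± 0.05 and -0.48 ± 0.05). CG12057 was near 0 in the day course, with at most 6.40, 1.27 and 4.19 CPM in any B3, O1 and O3 library, whereas each B3 library of 1 week held at least 72.3 CPM.

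Without any overlap between libraries, 29 members stood higher in O1 than in B3 and 2 lower, where 9.31% and 9.53% of the 8026 genes at the level minimum did. For O3 and B3 the counts were 22 and 3, where 9.62% and 8.52% of genes did. Between O3 and O1 no member was higher without overlap and 1 was lower, where 1.68% and 1.48% of genes were. By the edgeR test 31 members passed between O3 and O1, 4 higher and 27 lower in O3. Of all genes 30.7% passed, 13.3% higher and 17.4% lower, and of those at the level minimum 35.1% did, 13.9% higher and 21.2% lower. The 3 members with the smallest p were CG33521 (-0.51 ± 0.05), CG15617 (-0.62 ± 0.06) and Mf (-0.45 ± 0.05). Genes chosen by the mirrored rule (ratio of at least 2 in each strain and at least 5 CPM at 6 weeks) pointed the other way: of 56 tested, 44 were lower in O1 than in B3 and 46 lower in O3.

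Markers of other tissues also differed between the strains in these libraries. The 24 listed fat body genes summed to 14400 to 20500 CPM in B3, and to 10300 to 13300 and 10200 to 13000 in O1 and O3. The 42 immune genes summed to 5210 to 8870 CPM in B3, and to 2300 to 3050 and 2440 to 3390 in O1 and O3. The 37 cuticle genes summed to 479 to 615 CPM in B3, and to 780 to 990 and 712 to 870 in O1 and O3. The 79 gut genes (20900 to 27000 CPM over the 3 strains) and the 36 testis genes (323 to 429 CPM) overlapped in their sums. Single testis genes did differ by edgeR: of 35 tested, 4 were higher and 3 lower in O1 than in B3, 18 higher and 2 lower in O3 than in B3, and 10 higher and 1 lower in O3 than in O1. Of 73 tested gut genes, 16 were higher and 27 lower in O1 than in B3, and 26 higher and 26 lower in O3. In the age libraries 1 gene each of the fat body, immune and cuticle lists was at 0 throughout. The part of these markers in the members' strain differences was not tested.

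Within the day, 22 members differed between hours in B3, 14 in O1 and 25 in O3 by edgeR's test on the 4 time points. Among all genes tested 11.2%, 10.9% and 17% did, and among those at the level minimum 15%, 14.1% and 22.4%. The O1 count was 6 without ZT6 replicate 1 and 8 or 9 without ZT0 replicate 3, ZT6 replicate 3 or ZT12 replicate 1, and the O3 count 15 without ZT0 replicate 3. The 1 library of O1 at ZT18 was assumed to vary like the other groups. Most called members of B3 and O3 were highest at ZT0, namely 15 of 22 and 21 of 25, whereas the 14 called in O1 had peaks at all 4 hours (4, 3, 3 and 4). Troughs lay at ZT6 for 14 of 22 in B3 and at ZT18 for 19 of 25 in O3. The median difference between the highest and the lowest hourly mean was 0.44, 0.41 and 0.41 on the log2 scale for the called members of B3, O1 and O3. Peaks, troughs and these differences were not tallied over all called genes, so they are not read as a trait of the set. Outside the set, 11 of 22 citrate cycle and 5 of 11 glycolysis genes passed in B3, 12 and 9 in O3, and 4 and 0 in O1. Of 30 complex I genes, 2 passed in B3, 1 in O1 and 0 in O3.

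**Figure D4:**
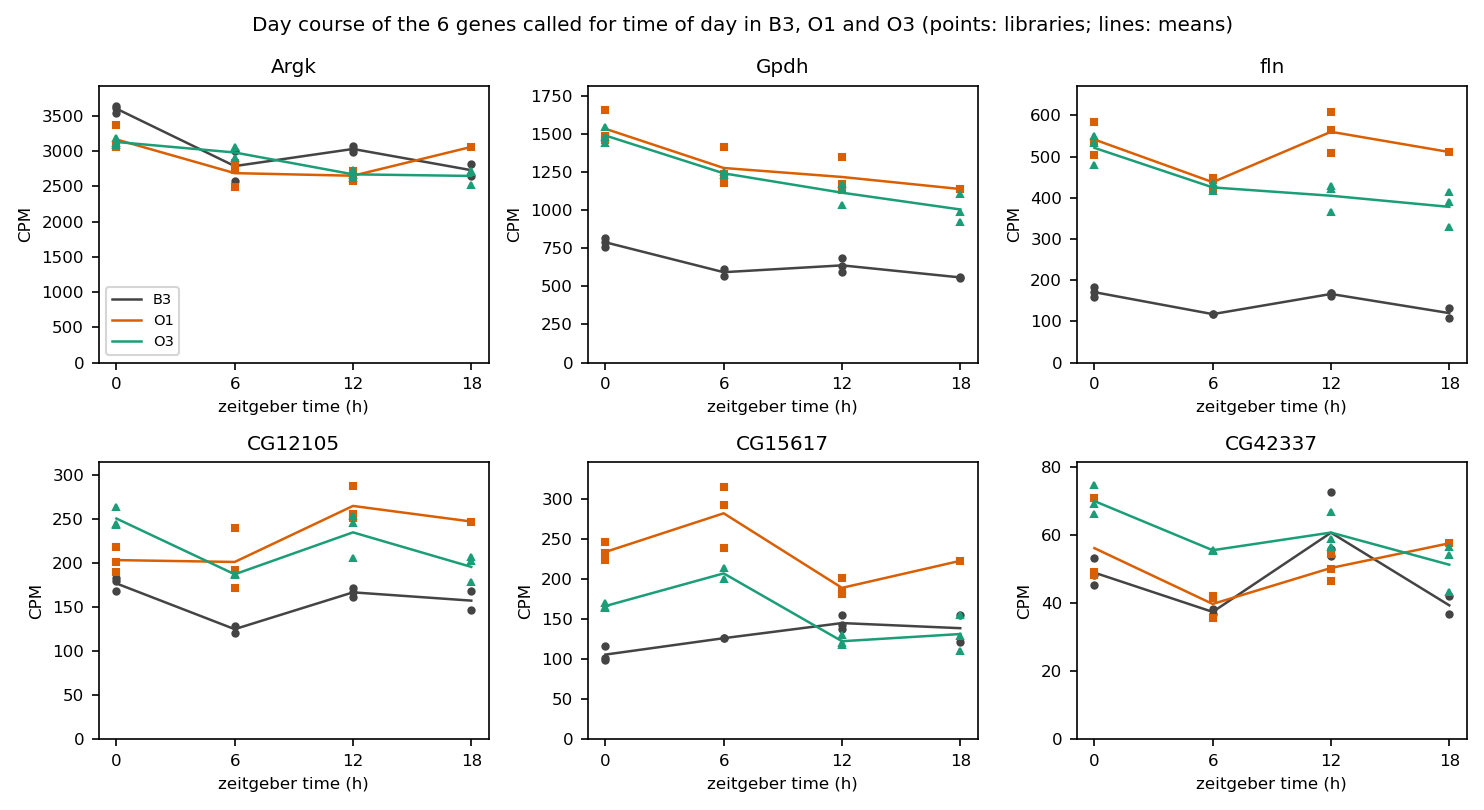
CPM in each library (points) against zeitgeber time in hours for the 6 members that differed between hours in each of B3 (circles), O1 (squares) and O3 (triangles), with lines through the hourly means. Gpdh stands highest at ZT0 in each strain, and O1 and O3 lie above B3 at every hour for Gpdh and fln.

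The 6 members that passed in all 3 strains were Argk, Gpdh, fln, CG12105, CG15617 and CG42337. This overlap was not tallied over all genes, and nothing is read from its size. In O1, CG12105 did not pass without ZT12 replicate 1 (adjusted p = 0.0662), nor CG15617 without that library or ZT6 replicate 2 (0.0524 and 0.0643). For Gpdh, B3 libraries at ZT0 held 794, 817 and 756 CPM (edgeR adjusted p = 0.000713 for the time of day), and the means at ZT6, ZT12 and ZT18 were 593, 638 and 558 CPM. Its O1 means from ZT0 to ZT18 were 1533, 1276, 1217 and 1138 CPM, and its O3 means 1489, 1241, 1114 and 1004 CPM. The ZT0 libraries were the highest of each strain. Argk, from ZT0 to ZT18, had means of 3604, 2789, 3032 and 2731 CPM in B3, of 3167, 2689, 2652 and 3061 CPM in O1 and of 3131, 2982, 2672 and 2649 CPM in O3. fln had B3 means of 171, 118, 166 and 120 CPM, so that ZT0 and ZT12 stood above the other hours. Its O1 means were 541, 438, 560 and 511 CPM, highest at ZT12 and lowest at ZT6. In O3 fln went from 521 CPM at ZT0 to 425, 405 and 378 CPM.

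Other members passed in some strains. kdn, citrate synthase, passed in B3 (means of 1249, 830, 922 and 789 CPM from ZT0 to ZT18, adjusted p = 0.00816) and in O3 (1722, 1188, 1153 and 1006 CPM, adjusted p = 0.00133). Its O1 means were 1702, 1472, 1601 and 1564 CPM (adjusted p = 0.692). Nplp3 passed in B3, with 110, 42.1, 51.6 and 75.6 CPM, and in O1, with 373, 170, 241 and 379 CPM. CG6904, glycogen synthase, had the smallest p in O3 (813, 650, 675 and 610 CPM, adjusted p = 2.2e-05).

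The daily profile itself, tested as an interaction of strain and hour, differed from B3 for 3 members in O1 and 2 in O3. Among all genes 1.4% and 1.55% did, and among those at the level minimum 1.91% and 2.11%. At an unadjusted p under 0.05 there were 12 and 16 members. CG15617 was called in both. Its B3 means from ZT0 to ZT18 were 106, 126, 145 and 139 CPM, highest at ZT12. Its O1 means were 234, 282, 189 and 223 CPM and its O3 means 166, 207, 122 and 131 CPM, highest at ZT6 (adjusted p = 0.0226 for O1 and 0.00148 for O3). At ZT12 the 3 B3 libraries, at 142, 155 and 138 CPM, lay above the 3 O3 libraries, at 129.5, 117 and 120 CPM, and at ZT0 they lay below. CG4300, spermine synthase, and CG15412 passed in O1 (adjusted p = 0.0091 and 0.0467), and CG9399 in O3 (adjusted p = 0.0494). Without the 1 library of O1 at ZT18, CG4300 and CG15412 no longer passed (adjusted p = 0.0553 and 0.31). CG9399 did not pass in 19 other settings, which were the replicate block (adjusted p = 0.0612) and 18 that left out 1 library of B3 or O3 (0.0513 to 0.112). CG15617 did not pass between O1 and B3 without B3 at ZT12 replicate 2 or O1 at ZT12 replicate 1 or 3 (adjusted p = 0.0506, 0.0544 and 0.0545).

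In the transgenic flies, tim stood at 145 to 830 CPM in the 12 mhc libraries and at 911 to 1640 CPM in the 11 mhc>timeless libraries, higher by 2.00 ± 0.05 on the log2 scale (edgeR adjusted p = 2.32e-14). With timeless expressed in muscle, 16 members differed over the day, 5 higher and 11 lower. Of all 12727 genes tested 18.4% passed, 8.68% higher and 9.75% lower, and of those at the level minimum 22.7% did, 10.1% higher and 12.6% lower; the members' share was 26.7%. Without mhc at ZT12 replicate 3 the count of members was 16, and without mhc>timeless at ZT18 replicate 3 it was 12. Without mhc>timeless at ZT0 replicate 3 it was 9. The members' median log2 difference was -0.03, and the 11 lower ones differed by -0.07 to -0.13. Sequencing depth moved with genotype at ZT0 to ZT12 (53.1 to 71.9 M counts in mhc against 124 to 170 M in mhc>timeless), and its part was not tested. Fewer members passed at each single hour, ZT0, ZT6 and ZT12 included (hours chosen after seeing the data). A single hour held at most 3 libraries of each line. No share over all genes stands beside the single-hour counts, so nothing is read from them. At ZT18 alone, where mhc had 148 to 168 M counts, 1 member passed.

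That member was Acon, aconitase. Its mhc libraries ranged from 3100 to 3684 CPM (median 3409) and its mhc>timeless libraries from 3868 to 4354 CPM (median 4042), without overlap. The log2 difference was 0.24 ± 0.03 over the day (edgeR adjusted p = 1.25e-05) and 0.25 at ZT18 alone (adjusted p = 0.0227). Ca-P60A was higher by 0.12 ± 0.03 (adjusted p = 0.0136). CG13177 was higher by 0.74 ± 0.12 (adjusted p = 0.000194), at 2.84 to 7.95 CPM in mhc and 5.28 to 11.45 CPM in mhc>timeless. CG13026 was higher by 0.53 ± 0.11 (adjusted p = 0.00194), at 1.42 to 2.81 CPM in mhc and 2.26 to 3.95 CPM in mhc>timeless. These ranges overlapped. CG12374 had means of 558, 577, 272 and 325 CPM from ZT0 to ZT18 in mhc and 1037, 846, 351 and 280 CPM in mhc>timeless. It was higher over the day by 0.38 ± 0.09 (adjusted p = 0.00789), with 0.86 at ZT0 alone (adjusted p = 0.0215) and -0.24 at ZT18 alone (adjusted p = 0.466). The gut list summed to 15900 to 20100 CPM in mhc and 15700 to 19600 CPM in mhc>timeless. Gpdh was lower (-0.11 ± 0.03, adjusted p = 0.0105). Of the 9 respiratory chain members, CG3683 and CoVIb were lower (-0.12 ± 0.03 and -0.09 ± 0.03), and the highest value was that of Ucrh (0.09 ± 0.06, adjusted p = 0.349).

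**Figure D5:**
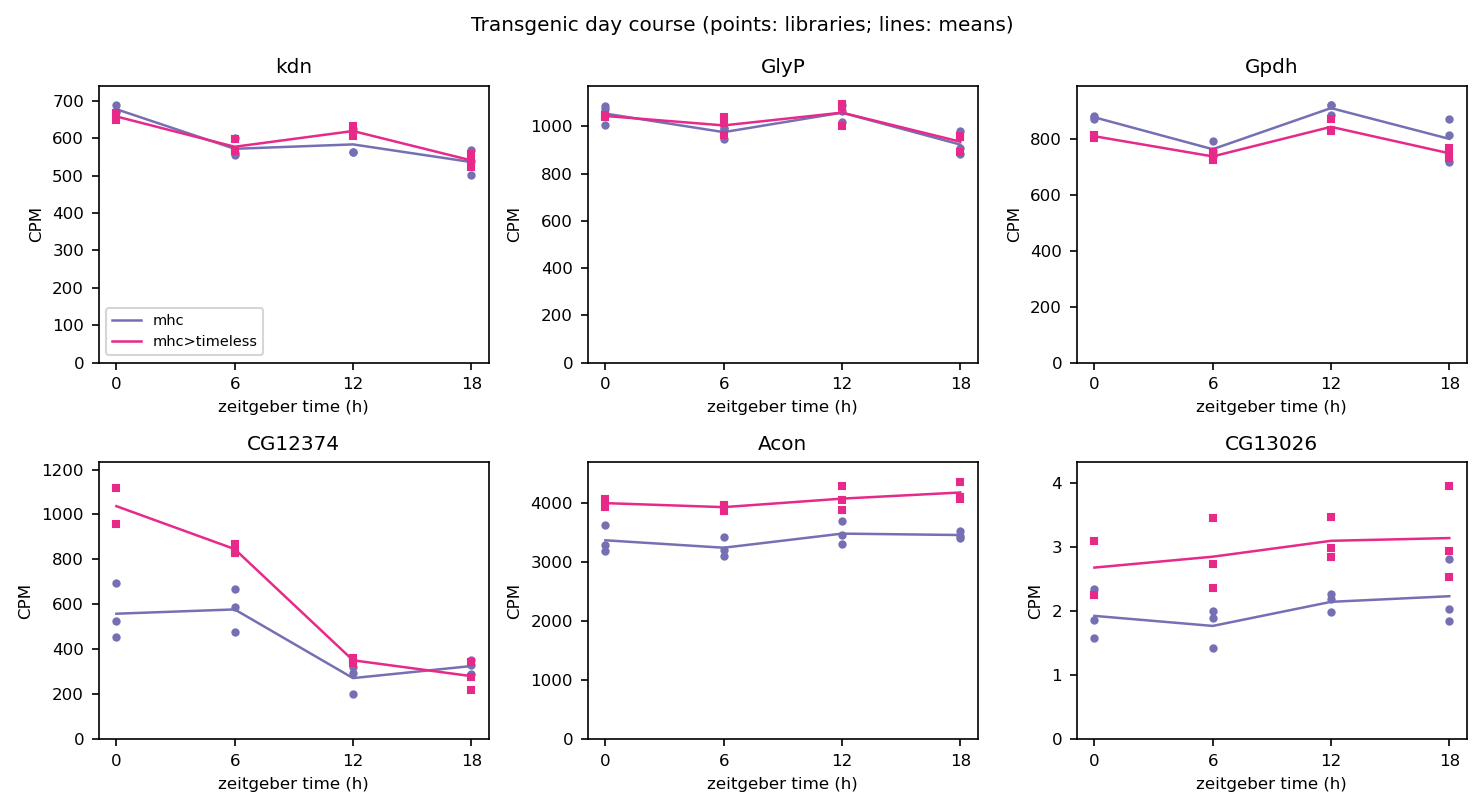
CPM in each library (points) against zeitgeber time in hours for 6 members in mhc (circles) and mhc>timeless (squares), with lines through the hourly means. The Acon means lie higher in mhc>timeless at each hour, kdn and GlyP means lie close together, and the CG12374 means are furthest apart at ZT0, 558 against 1037 CPM.

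Over the hours, 8 members differed in mhc and 10 in mhc>timeless. Among all genes 22.6% and 19.1% did, and among those at the level minimum 30% and 25.1%, beside shares of 13.3% and 16.7% among the members. The count in mhc was 15 without ZT18 replicate 3 and 5 without ZT6 replicate 2 or 3, and that in mhc>timeless was 6 without ZT12 replicate 1, so nothing is read from these shares. With the photoreceptor-rich library of the same line left out, in a separate fit for each line, the counts were 7 and 8. kdn, Gpdh, GlyP, CG6904, CG42337, CG12105 and CG12374 passed in both lines. kdn was highest at ZT0 in both (678, 572, 583 and 536 CPM from ZT0 to ZT18 in mhc and 658, 577, 619 and 541 CPM in mhc>timeless). CG12374 had the smallest p in both (edgeR adjusted p = 0.000424 and 2.34e-06), with its means at ZT12 and ZT18 below those at ZT0 and ZT6. The profile differed between the lines for 0 of the 60 members by edgeR, where 0.126% of all genes and 0.113% of those at the level minimum did, with 7 members at an unadjusted p under 0.05 and 1 by DESeq2. Gpdh, CG12105 and CG42337 were the 3 members with a difference between hours in all 5 lines, and 19 members passed in none. These overlaps too were not tallied over all genes. CG42337 did not pass in mhc>timeless without ZT12 replicate 1 (adjusted p = 0.0555).

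The members were spread over the genome. By RefSeq names 58 were placed, 11 on chromosome arm 2L, 12 on 2R, 13 on 3L, 12 on 3R, 2 on 4 and 8 on X. Of 58 found in the annotation, 4 shared an exon with another gene on the same strand. These were CG1746 and CG32230 with microRNA genes, CoVIb with CG18809 and sesB with Ant2. How reads on the shared exons were counted is not known here, so the counts of these members may leave out some reads or hold reads of the partner. Another 15 crossed exons of a gene on the opposite strand. The libraries are labelled as stranded, but the strand setting of the counting is not known from the labels.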

How the data were processed

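Gene read counts for 72 libraries of skeletal muscle were used as the authors deposited them, 1 table per library. The submitters' processing notes name BWA, STAR, HTSeq and the build dm3; no version or role is given in the sources used here. Summary rows were dropped; reads without a feature were 20.8% to 27.9% of all reads in the 1 week libraries, 13% to 17.6% at 6 weeks and 7.11% to 16.5% in the other experiments. CPM was computed on summed gene counts. The members, the gene lists and the tests were chosen with earlier results of these data known. Tests used edgeR 4.0.16 in R 4.3.3 (TMM, filterByExpr, 1 mean per line and hour, quasi-likelihood F-test, Benjamini-Hochberg over all genes tested), separately in the day course (19 residual degrees of freedom) and the transgenic experiment (15); DESeq2 1.42.0 was an alternative. Levels and figures were computed with pandas 2.3.3 in Python 3.11.15. The fits were tested on simulated data. Intervals of single counts cover counting error only; 3 counts correspond to 0.0841 to 0.194 CPM in the age libraries. Genes were named by level at 1 week (12), lowest ratio (12), up to 4 per list and up to 5 per test by p, and by closeness to the threshold (3 each side); other members are named for completeness after their values were seen. Other settings were a replicate block, RLE scaling, no filter, other thresholds and leaving out each library. Same-numbered libraries of different groups had median correlations of 0.0135 and 0.0101 over 136 and 77 pairs. Single pairs ranged from -0.518 to 0.541 and from -0.418 to 0.643, with 26 and 27 pairs above 0.1. With medians near 0, numbers were not used as pairs in the main fits.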

Additional observations from a re-analysis of the deposited data

Results flagged for a closer look

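There were 5 results that stood out because the daily course of a member differed between strains by the interaction test of edgeR. Between O1 and B3 the adjusted p was 0.0091 for CG4300, 0.0226 for CG15617 and 0.0467 for CG15412. Between O3 and B3 it was 0.00148 for CG15617 and 0.0494 for CG9399. CG15617 was highest at ZT12 in B3 and at ZT6 in O1 and O3. CG9399 was highest at ZT0 in B3 (201 ± 6.00 CPM, SD, n = 3) and lowest at that hour in O3 (190 ± 2.25 CPM, n = 3). CG4300 was highest at ZT12 in B3 (164 ± 4.18 CPM, n = 3) and lowest at that hour in O1 (147 ± 1.89 CPM, n = 3). No group held more than 3 libraries, so single libraries were not screened as outliers.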

How the results depend on the processing

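The set held 60 genes by the rule and 101 with TMM library sizes; a ratio threshold of 0.4 gave 22 and one of 0.6 gave 128. Leaving out each age library gave 56 to 78, and 46 of the 60 members met the rule every time. By DESeq2 more members differed between hours, 41 in B3, 22 in O1, 13 in mhc and 17 in mhc>timeless. In O1, O3 and mhc>timeless 8, 8 and 1 members had another daily profile by DESeq2. No share over all genes stands beside these DESeq2 counts, and nothing is read from them about the members. With ZT0, ZT6 and ZT12 only, 1 profile differed between O1 and B3. Between mhc>timeless and mhc, 1 member passed at ZT18 alone. At ZT0, ZT6 and ZT12 alone 2, 2 and 1 passed, in settings chosen after seeing the data. No share over all genes stands beside these single-hour counts, and nothing is read from them. At ZT18 alone CG12374 reversed to -0.24. The cause was not tested.

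Leaving out each library in turn gave 51 to 56 members for O1 against B3, 44 to 48 for O3 against B3, 23 to 34 for O3 against O1 and 9 to 23 for mhc>timeless against mhc. For the time of day it gave 15 to 18 in B3, 6 to 17 in O1, 15 to 34 in O3, 5 to 15 in mhc and 6 to 12 in mhc>timeless. For daily profiles it gave 1 to 3 in O1, 1 to 4 in O3 and 0 to 0 in mhc>timeless. Among libraries that moved a count by over 1.5 times, O1 fell to 9, 6, 9 and 8 without ZT0 replicate 3, ZT6 replicate 1, ZT6 replicate 3 and ZT12 replicate 1. O3 fell to 15 without ZT0 replicate 3, and mhc stood at 5, 5 and 15 without ZT6 replicate 2, ZT6 replicate 3 and ZT18 replicate 3. mhc>timeless had 6 without ZT12 replicate 1. The O1 profile count fell to 1 without B3 at ZT12 replicate 2, O1 at ZT12 replicate 1 or 3, or O1 at ZT18 replicate 1, and the O3 profile count fell to 1 without most single libraries of B3 or O3 and rose to 4 without O3 at ZT6 replicate 1 or O3 at ZT18 replicate 2.

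Replicate numbers, not used as pairs in the main fits, were also run as a block. The time-of-day counts were then 20, 15 and 26 in B3, O1 and O3 and 9 and 11 in mhc and mhc>timeless. The strain counts were 54, 48 and 30, the genotype count 16, and the profile counts 2, 1 and 0. Of 50 named tests, 36 passed under every setting run and 14 did not pass under at least 1. CG9399 (adjusted p = 0.0494) did not pass in 19 of its settings (adjusted p 0.0513 to 0.112), CG15412 (0.0467) in 20 (0.0543 to 0.315), CG15617 between O1 and B3 in 3 (0.0506 to 0.0545) and CG4300 in 2 (0.0553 to 0.0958).

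Members with low levels rest on fewer reads than the others in the age libraries. The lowest 1 week mean over members and strains was 6.253 CPM. The values of O1 at ZT18 rest on 1 library.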
